A study of Eublepharis macularius with 23 samples.

Results

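Gene expression in the dorsal skin of homozygous Hypome 1 leopard geckos (*Eublepharis macularius*) was compared with that of wild-type skin, in 6 of the 23 samples of the series. The 4 libraries labelled homozygous (mh1/mh1) and the 2 labelled wild-type (+/+) were taken from the Hypome 1 count table, and the genes described are the 16554, of 22064 in the table, with 10 or more counts in at least 2 of these 6 libraries. Hypome 1 is an inherited hypomelanistic morph, whose skin carries less dark pigment. All embryos were sampled at embryonic day 40, about when the skin starts to make melanin. They were offspring of 1 heterozygous breeding pair, were collected over several seasons and were not sexed. Each library stands for 1 embryo, so p-values measure the spread between embryos of 1 family. The 3 heterozygous (mh1/+) libraries of the same table share the family and the age. They entered the estimate of the spread, and their levels are given where they matter.

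Reptile skin is a layered epidermis on a collagen-rich dermis. Basal keratinocytes divide and push their daughters outwards, where these fill with keratins and corneous proteins, are crosslinked and are sealed by ceramides and other lipids into a barrier. Scales form through signals that pass between the epidermis and the dermal fibroblasts below it, WNT, FGF, hedgehog and BMP proteins among them. Colour comes from chromatophores: melanophores make melanin with tyrosinase and related enzymes, xanthophores hold pteridines and carotenoids, and iridophores hold reflecting crystals of purines. In RNA from whole skin, fewer cells of a type and less RNA per cell cannot be told apart.

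The homozygous libraries held 35569023 to 45230007 counts and the wild-type libraries 32455975 and 43564882. Levels are given as CPM, the counts scaled to a common library size with TMM factors. Differences are log2 fold changes of homozygous over wild-type skin from edgeR's quasi-likelihood test. The value after ± is an approximate standard error, the size of the log2 fold change over the square root of the test's F statistic. For genes near 0 in 1 genotype the fold change depends on the fit's prior count, and the value after ± with it. Genes annotated as ribosomal RNA took 18.1%, 6.34%, 9.37% and 9.39% of the counts in homozygous replicates 1 to 4, against 3.08% and 5.44% in the wild-type libraries. Summed over 41 skeletal muscle markers, the levels were 8926, 1046, 893 and 1113 CPM in the homozygous libraries, against 1699 and 2275 CPM in the wild-type libraries. Homozygous replicate 1 thus stood apart in both measures. Results of fits without this library, and of a fit without the ribosomal RNA genes, are given below. The part of muscle and ribosomal RNA content in the results was not tested. Of the symbols set as cell type markers, *KRT5*, *KRT14*, *KRT15*, *TGM3*, *MYLPF*, *HBA1*, *HBB*, *ADIPOQ* and *FABP4* are not used in the count table, *TWIST2*, *ACAN*, *MATN1* and *GCH1* were at or near 0, and melanophore, keratinocyte and fibroblast markers were present in every library.

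Few genes passed the adjusted threshold, while many differed by a large factor. At an adjusted p under 0.05, edgeR called 3 genes, 0.0181% of those tested. Of these, *LOC129326753* (*B3GALT5-like*) and *LOC129326151* (*B3GALT5-like*) rose in homozygous skin and *AHRR*, the repressor of the aryl hydrocarbon receptor, fell, with log2 fold changes of 2.83 ± 0.24, 8.63 ± 0.76 and −3.05 ± 0.28. The value for *LOC129326151* (*B3GALT5-like*) depends on the fit's prior count, since the wild-type libraries held 2 counts and 0 counts. An unadjusted p under 0.05 was reached by 817 genes that were higher in homozygous skin (4.94%) and 580 that were lower (3.50%). All 4 homozygous libraries lay below both wild-type libraries in 1563 genes (9.44%) and above both in 1656. With groups that do not overlap and a log2 fold change of at least 1, 468 genes were higher (2.83%) and 200 were lower (1.21%). This balance was not stable: it was 488 higher and 355 lower without homozygous replicate 1. With no count filter it was 523 and 344. By the Wald statistic of DESeq2, run on these 6 libraries alone, 352 genes were called higher (2.13%) and 96 lower (0.580%), 448 in all, against 3 by edgeR. Without homozygous replicate 1, DESeq2 called 318 higher and 175 lower. Without homozygous replicate 3 edgeR called 18 genes, and without wild-type replicate 2 it called 1 gene, with 680 genes at an unadjusted p under 0.05. DESeq2's 448 calls became 847 without homozygous replicate 3, 279 and 226 without homozygous replicates 2 and 4, and 101 without wild-type replicate 2. The 668 genes apart by at least 1 became 1019 without homozygous replicate 3. Groups with fewer libraries overlap less easily, so this rise does not measure how stable the number is.

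**Figure D1:**
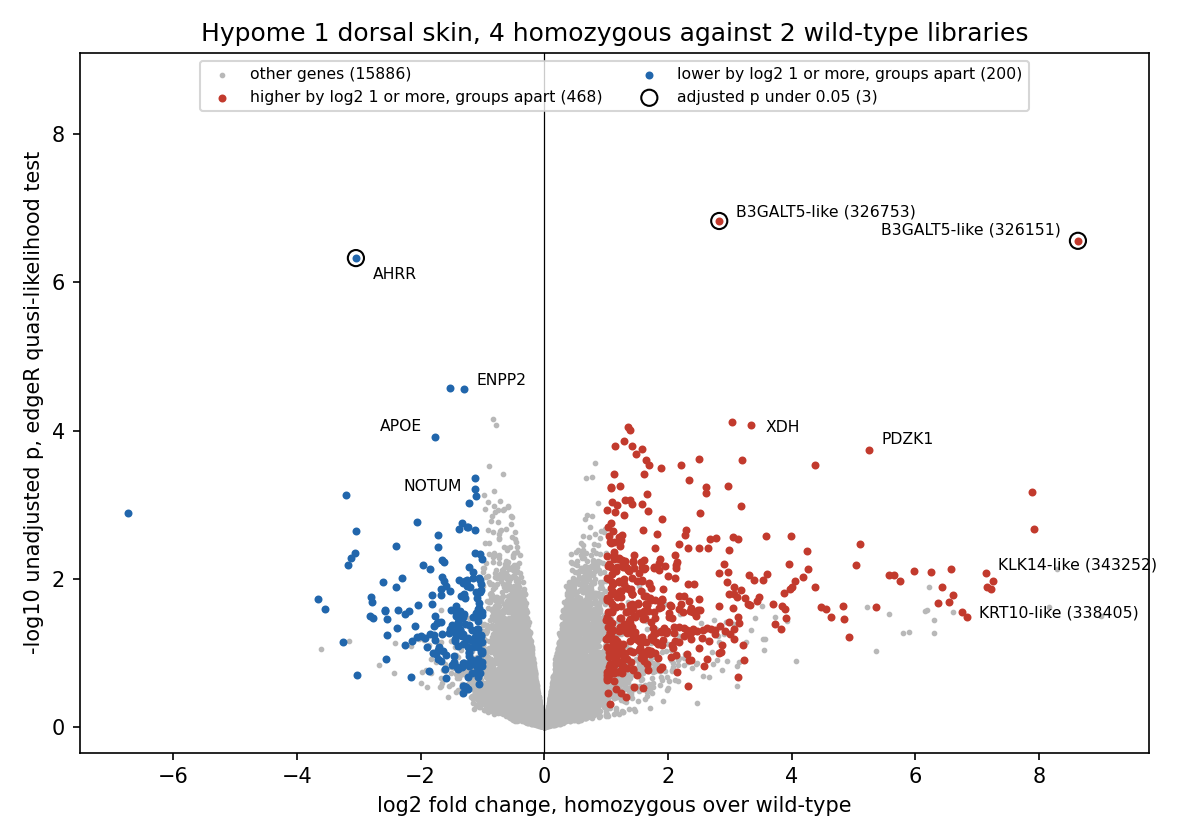
The log2 fold change of homozygous over wild-type skin (x axis) against −log10 of the unadjusted p of edgeR's quasi-likelihood test (y axis) for the 16554 genes tested, from 4 homozygous and 2 wild-type libraries. The 468 red points have all homozygous libraries above both wild-type libraries and a log2 fold change of at least 1, the 200 blue points are the reverse, and the 3 circled genes had an adjusted p under 0.05.

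Except where a gene is said to have risen or fallen, the genes named below did not pass the adjusted threshold, and the p given beside a value is edgeR's, adjusted over all 16554 genes. The smallest p that the exact two-sided permutation test over the 6 libraries can give is 0.067, and libraries that do not overlap do not ensure it. The test gave that p for 121 of the 155 genes named in the text.

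*XDH* was among the 12 genes higher in homozygous skin with the smallest p. It encodes xanthine dehydrogenase, an enzyme of purine breakdown and a marker of xanthophores. Its level was 31.1, 23, 10.1 and 21.5 CPM in the homozygous libraries, against 2.56 and 1.67 CPM in the wild-type libraries and 1.09, 1.51 and 2.78 CPM in the heterozygous libraries. The lowest homozygous library was several-fold above both wild-type libraries, and the log2 fold change was 3.34 ± 0.53 (adjusted p = 0.147). *PDZK1*, a scaffold protein for membrane transporters, had 31, 16.3, 7.67 and 17.1 CPM in homozygous skin, against 0.682 and 0.283 CPM in wild-type skin. Replicate 3 was again the lowest of the homozygous libraries, and the log2 fold change was 5.25 ± 0.85 (adjusted p = 0.178). *ADAM9*, a membrane-bound metalloprotease, had 163, 109, 76 and 153 CPM in homozygous skin, against 43.9 and 39.9 CPM in wild-type skin, which is a log2 fold change of 1.58 ± 0.28 (adjusted p = 0.178). The heterozygous libraries, at 44.2, 36.5 and 45.8 CPM, lay near the wild-type libraries.

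*LOC129341169* (*IL20RA-like*), named after a receptor subunit for the interleukin-20 family of cytokines, had 40.01, 33.1, 24.7 and 36.4 CPM in homozygous skin, against 15 and 10.8 CPM in wild-type skin (log2 fold change 1.38 ± 0.23). *TTC39B* had 41.5, 30.03, 23.4 and 39 CPM in the homozygous libraries, against 12.5 and 12.7 CPM in the wild-type libraries (log2 fold change 1.41 ± 0.25). The groups were well apart in both genes. A C-type lectin gene, *LOC129336460* (*CLEC4F-like*), was at 9.63, 9.21, 8.25 and 11 CPM in homozygous skin, against 3.95 and 3.48 CPM in wild-type skin (log2 fold change 1.36 ± 0.22), and *TMEM212* at 4.19, 2.96, 2.02 and 5.78 CPM in the homozygous libraries, against 0.398 and 0.50 CPM in the wild-type libraries (log2 fold change 3.04 ± 0.49). The adjusted p in edgeR ran from 0.147 for *TMEM212* to 0.178 for *TTC39B*. *PRCP*, in the interval that the study mapped, was also among the 12, with a log2 fold change of 1.14 ± 0.20 (adjusted p = 0.178). With homozygous replicate 3 left out, *XDH*, *ADAM9*, *LOC129341169* (*IL20RA-like*), *TTC39B* and *TMEM212* passed the adjusted threshold.

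The last of the 12 are neighbours. *LOC129325701* (*IVL-like*) and *LOC129325693* (*RPTN-like*) are named after involucrin and repetin, which in mammals are crosslinked into the cornified envelope of the outer keratinocytes. They lie next to each other on Scaffold 1, at 4891817 to 4893334 and 4894013 to 4896983. The first had 905, 1067, 964 and 918 CPM in the homozygous libraries, against 469.8 and 315 CPM in the wild-type libraries, and the second 116, 174, 141 and 108 CPM in homozygous skin, against 60.4 and 35.6 CPM in wild-type skin. Their log2 fold changes were 1.30 ± 0.22 and 1.49 ± 0.27 (adjusted p = 0.176 and 0.191). Unlike in most genes that were higher, the highest library of this pair was homozygous replicate 2.

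The 12 genes lower in homozygous skin with the smallest p were led by *AHRR*, and apart from it their log2 fold changes ran from −1.77 (*APOE*) to −0.66 (*TNFRSF12A*). *ENPP2* encodes autotaxin, a secreted enzyme that makes the signalling lipid lysophosphatidic acid. It had 27.8, 41.8, 42.8 and 37 CPM in homozygous skin, against 82 and 101 CPM in wild-type skin, and its log2 fold change was −1.29 ± 0.19 (adjusted p = 0.0921). The heterozygous libraries, at 77, 55 and 67.3 CPM, were above all homozygous libraries. *SLCO2A1*, the prostaglandin transporter, had 20.7, 22.3, 18.8 and 19.8 CPM in the homozygous libraries, against 36.9 and 33.1 CPM in the wild-type libraries, with a log2 fold change of −0.78 ± 0.13 (adjusted p = 0.147). These were the only members with an unadjusted p under 0.05 among the 22 tested of the list on prostaglandins and lysophosphatidic acid. Over all genes, 3.50% were lower and 4.94% higher at that p. The median log2 fold change of the list was −0.03, against 0.01 over all genes.

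*NOTUM*, a secreted enzyme that inactivates WNT proteins, had 12, 15, 23.7 and 15.9 CPM in homozygous skin, against 34.9 and 37.6 CPM in wild-type skin. The groups did not overlap, and the log2 fold change was −1.12 ± 0.23 (adjusted p = 0.222). The serine protease *PRSS23* had 109, 121, 117 and 108 CPM in homozygous skin, against 182 and 219.6 CPM in wild-type skin, with a log2 fold change of −0.82 ± 0.13 (adjusted p = 0.147). *TNFRSF12A*, a receptor of the TNF family, was at 24.3, 20.7, 22.9 and 24.3 CPM in the homozygous libraries, against 35.6 and 37.3 CPM in the wild-type libraries (log2 fold change −0.66 ± 0.13, adjusted p = 0.216). The spread among the homozygous libraries was small in both. *ANGPTL1*, a secreted angiopoietin-like protein, *CRMP1*, a cytoskeletal protein of growing axons, *NRG2*, a ligand of ERBB receptors, and *FCSK*, a fucose kinase, had log2 fold changes of −0.82 ± 0.17, −1.11 ± 0.23, −0.97 ± 0.21 and −0.89 ± 0.17. *LOC129323551*, to which the files give no name, was at 15.2, 12, 9.83 and 9.28 CPM in homozygous skin, against 38.6 and 27.8 CPM in wild-type skin (log2 fold change −1.52 ± 0.22, adjusted p = 0.0921). *APOE*, a lipid carrier, completes the 12 with a log2 fold change of −1.77 ± 0.30 (adjusted p = 0.171). *ENPP2* and *NOTUM* passed the adjusted threshold without homozygous replicate 3.

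**Figure D2:**
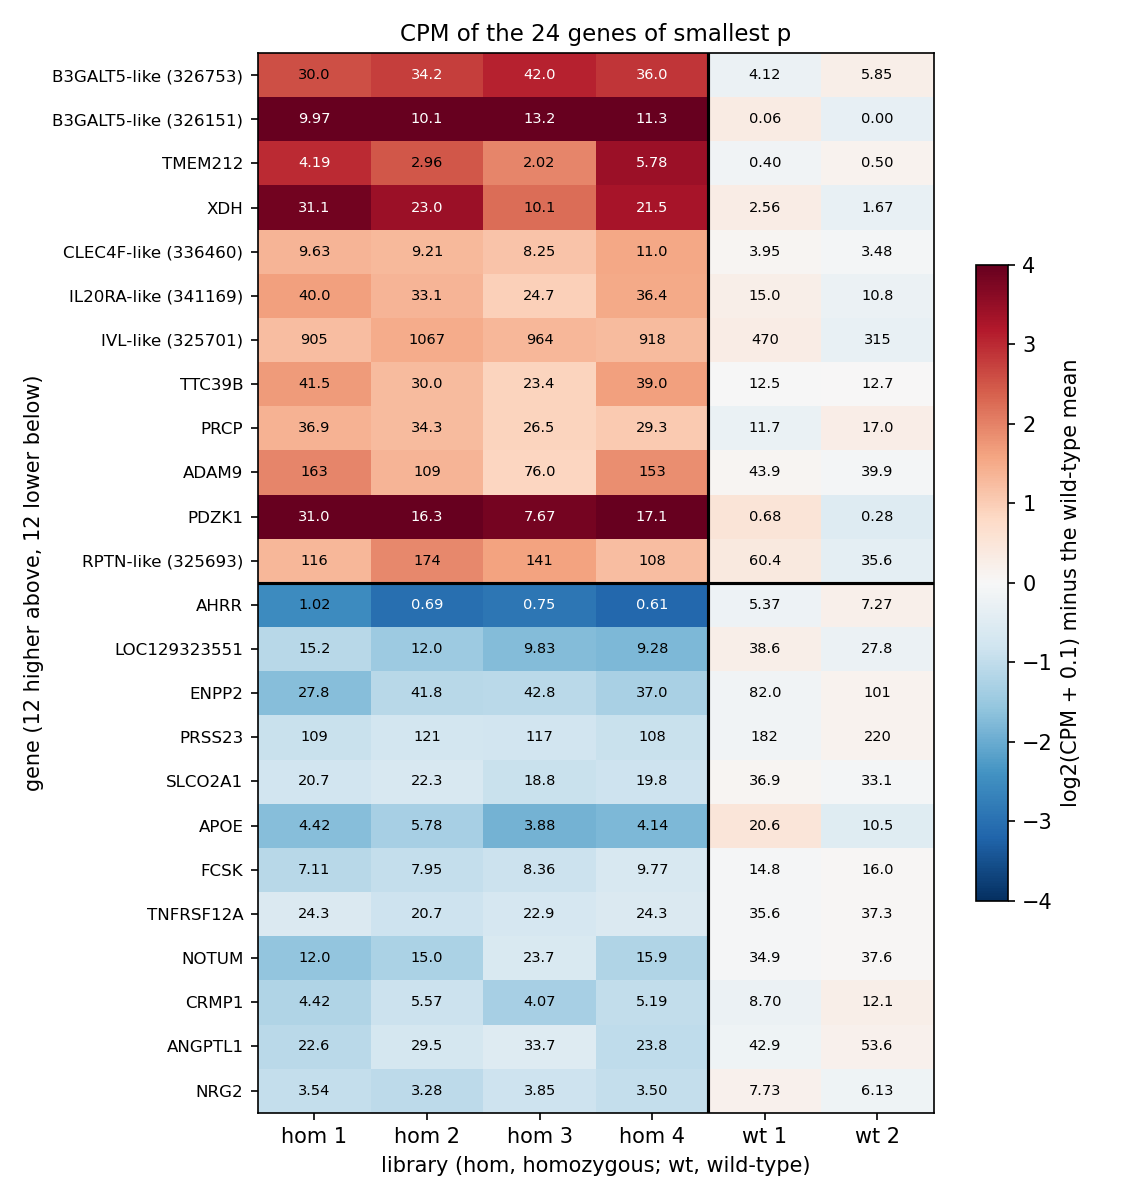
CPM of the 12 higher and the 12 lower genes of smallest p (genes down the page, digits of LOC129 numbers in brackets) in the 4 homozygous and 2 wild-type libraries (columns), coloured by log2(CPM + 0.1) minus the wild-type mean. In each of the 24 genes the homozygous and wild-type libraries do not overlap, which the choice of genes required. In *XDH*, *PDZK1* and *ADAM9* homozygous replicate 3 was nearest to the wild-type libraries.

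The genes that build the lipid barrier of the epidermis had mostly higher levels in homozygous skin. Of 19 members tested, 7 had an unadjusted p under 0.05 and were higher, against 4.94% of all genes, and none was lower at that p. DESeq2 also called 7 members higher and none lower, against 2.13% and 0.580% of all genes. The median log2 fold change was 0.63, against 0.01 over all genes, and 17 of the 19 values were above 0. The count stayed between 5 and 7 when a homozygous library was left out, was 3 without either wild-type library, and was 1 when libraries were scaled by their totals without TMM. Summed over the list, the homozygous libraries held 2089.9, 1784, 1441 and 1954 CPM, against 1192 and 971 CPM in the wild-type libraries.

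Within the list, both the first step and later steps of ceramide synthesis and transport were represented. *SPTLC3*, a subunit of the enzyme that starts sphingolipid synthesis, had 6.84, 7.29, 6.59 and 9.03 CPM in homozygous skin, against 4.49 and 3.28 CPM in wild-type skin (log2 fold change 0.94 ± 0.33, adjusted p = 0.491). *UGCG*, which adds glucose to ceramide, had 40.7, 42.4, 52.9 and 50.3 CPM in the homozygous libraries, against 28.1 and 32.1 CPM in the wild-type libraries (log2 fold change 0.63 ± 0.20, adjusted p = 0.461). *ABCA12*, which loads lipids into the secreted granules of keratinocytes, had 319.6, 282, 187 and 257 CPM in homozygous skin, against 168 and 126 CPM in wild-type skin (log2 fold change 0.83 ± 0.37, adjusted p = 0.592). The groups did not overlap in any of the 3. *ACSL1*, which activates fatty acids, and *SGMS2*, a sphingomyelin synthase, had log2 fold changes of 0.58 ± 0.18 and 0.68 ± 0.23. *ELOVL1*, a fatty acid elongase and one of the most expressed members, had 235, 227, 209.9 and 228 CPM in the homozygous libraries, against 212 and 163 CPM in the wild-type libraries, and its groups overlapped.

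The largest difference of the list was in *ELOVL4*, which lengthens fatty acids to the very long chains of barrier ceramides. It had 283, 141, 59.7 and 228 CPM in homozygous skin, against 13.4 and 1.78 CPM in wild-type skin and 7.0, 0.604 and 15.3 CPM in heterozygous skin (log2 fold change 4.56 ± 1.58, adjusted p = 0.523). Levels varied several-fold within each genotype, with homozygous replicate 3 and wild-type replicate 2 the lowest of theirs. *ACER1*, a ceramidase of the epidermis, had 342, 229, 117 and 268 CPM in homozygous skin, against 79.1 and 30.1 CPM in wild-type skin. Its adjusted p in edgeR was 0.685, and DESeq2's adjusted p on the 6 libraries was 7.41e-05. Among genes chosen after their values were seen, *SPTSSB*, a small subunit of the same first enzyme, had 54.7, 24.5, 6.7 and 43.5 CPM in the homozygous libraries, against 2.13 and 2.18 CPM in the wild-type libraries (log2 fold change 3.91 ± 1.47, adjusted p = 0.541). *LOC129338828* (*ALOXE3-like*), named after a lipoxygenase of barrier formation in mammals, was at 0.554 to 3.3 CPM in homozygous skin, against 0.227 and 0 CPM in wild-type skin.

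Keratins of the same family diverged. Of 34 keratin and keratin-like genes tested, 7 were higher and 2 lower at an unadjusted p under 0.05, against 4.94% and 3.50% of all genes, with a median of 0.34. Without wild-type replicate 2 the counts were 2 and 0. Only uniquely mapped reads were counted, so the split of counts between close copies is uncertain, and the strand setting is not given, so the same holds for overlapping genes. The most counted keratins differed little: *LOC129338255* (*KRT24-like*) had 8101, 6345, 5429 and 5774 CPM in homozygous skin, against 6270.4 and 5958 CPM in wild-type skin, and *LOC129346181* (*KRT6A-like*) 6227, 5134, 4666 and 5585 CPM in the homozygous libraries, against 5230.1 and 4721 CPM in the wild-type libraries. *LOC129339097* (*KRT10-like*), named after a keratin of suprabasal cells, had 1801, 1681, 1117 and 1254 CPM in homozygous skin, against 789 and 554 CPM in wild-type skin, with a log2 fold change of 1.12 ± 0.32 (adjusted p = 0.443). The simple epithelial keratins *KRT8* and *KRT18* had log2 fold changes of 0.44 ± 0.16 and 0.94 ± 0.42, and *LOC129346010* (*KRT6A-like*), at 3.16 to 6.75 CPM in homozygous skin, one of 1.58 ± 0.35 (adjusted p = 0.292).

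A pair of keratin-like genes was near absent from some libraries and abundant in others. *LOC129338405* (*KRT10-like*) had 1995, 494, 89.7 and 742 CPM in the homozygous libraries, 5.42, 0.252 and 14.1 CPM in the heterozygous libraries and 14.2 and 0.479 CPM in the wild-type libraries. *LOC129346179* (*KRT5-like*) had 1293, 337, 102 and 692 CPM in homozygous, 6.85, 0.151 and 16 CPM in heterozygous and 11.5 and 3.22 CPM in wild-type skin. Their log2 fold changes were 6.83 ± 2.52 and 6.37 ± 2.10 (adjusted p = 0.541 and 0.511). The homozygous libraries differed from one another by more than 10-fold in both genes, and the lowest of them was above all other libraries. The copy *LOC129346180* (*KRT5-like*), which lies on the same scaffold, had 1429, 1306, 1414 and 1438 CPM in the homozygous libraries, against 1533 and 1219 CPM in the wild-type libraries, and did not follow this pattern.

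In several clusters of genes, whose cell type in this skin was not tested, homozygous replicate 1 was the highest library and replicate 3 the lowest homozygous one. Apart from the *KLK14-like* pair, they were chosen after their values were seen, so their values are a description. The 3 genes *LOC129339514* (*HSD17B14-like*), *LOC129339516* (*HSD17B14-like*) and *LOC129339517* (*HSD17B14-like*) lie on Scaffold 12 between 58575883 and 58646104 and are named after a steroid dehydrogenase. The last of them had 831, 273, 15.5 and 324 CPM in homozygous skin, against 6.25 and 0.479 CPM in wild-type skin, and their log2 fold changes were 5.36 ± 1.83, 4.26 ± 1.24 and 6.76 ± 2.38. The neighbours *LOC129343252* (*KLK14-like*) and *LOC129343251* (*KLK14-like*) on Scaffold 15 are named after a kallikrein, a serine protease that in mammals takes part in the shedding of corneocytes. They had 96.1, 35.6, 4.68 and 55.4 CPM in homozygous skin, against 0.682 and 0.0435 CPM in wild-type skin, and 45.2, 28.3, 8.09 and 22.2 CPM in the homozygous libraries, against 3.64 and 2.11 CPM in the wild-type libraries (log2 fold changes 7.14 ± 1.93 and 3.18 ± 1.00, adjusted p = 0.449 and 0.482). The wild-type libraries lay below every homozygous library in all 5 genes. The kallikrein-like list as a whole, with 5 genes tested, did not follow the pair. In it 2 log2 fold changes were below 0, and the median was 0.49. It was −0.10 without homozygous replicate 1 and −0.56 without wild-type replicate 2. The summed levels overlapped, at 497, 359, 255 and 317 CPM in homozygous skin, against 448 and 265 CPM in wild-type skin.

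The most abundant of these clusters were genes named *SHEMATRIN2-like* on Scaffold 1. *LOC129325646* (*SHEMATRIN2-like*) had 5369, 3713, 1427 and 2604 CPM in homozygous skin, 572, 6.92 and 756 CPM in heterozygous skin and 789 and 299.6 CPM in wild-type skin, and *LOC129325657* (*SHEMATRIN2-like*) had 4193, 2404, 548 and 1979.7 CPM in homozygous, 175, 0.101 and 331 CPM in heterozygous and 442 and 79 CPM in wild-type skin. Neither reached an unadjusted p of 0.05 in edgeR (adjusted p = 0.724 and 0.761), while DESeq2's adjusted p on the 6 libraries was 0.0114 and 0.0378. One heterozygous library, replicate 2, was far below every other library in both. Further single members of such families were *LOC129346373* (*HRNR-like*) with 416, 264, 185 and 328 CPM in homozygous skin, against 95.5 and 76.8 CPM in wild-type skin (log2 fold change 1.79 ± 0.46, adjusted p = 0.425), and *LOC129324182* (*FADS1-like*), named after a fatty acid desaturase, with 161, 101, 62.2 and 139 CPM in the homozygous libraries, against 36.2 and 15 CPM in the wild-type libraries. *LOC129324105* (*FADS1-like*), *LOC129331689* (*LIPM-like*), named after a lipase of the epidermis, and *LOC129344827* (*AADACL4-like*) had log2 fold changes of 6.44 ± 1.91, 3.13 ± 0.81 and 4.38 ± 1.37, at 6.59 to 76.6, 1.83 to 5.42 and 2.88 to 20.8 CPM in homozygous skin. In each of the 5 genes the groups did not overlap.

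**Figure D3:**
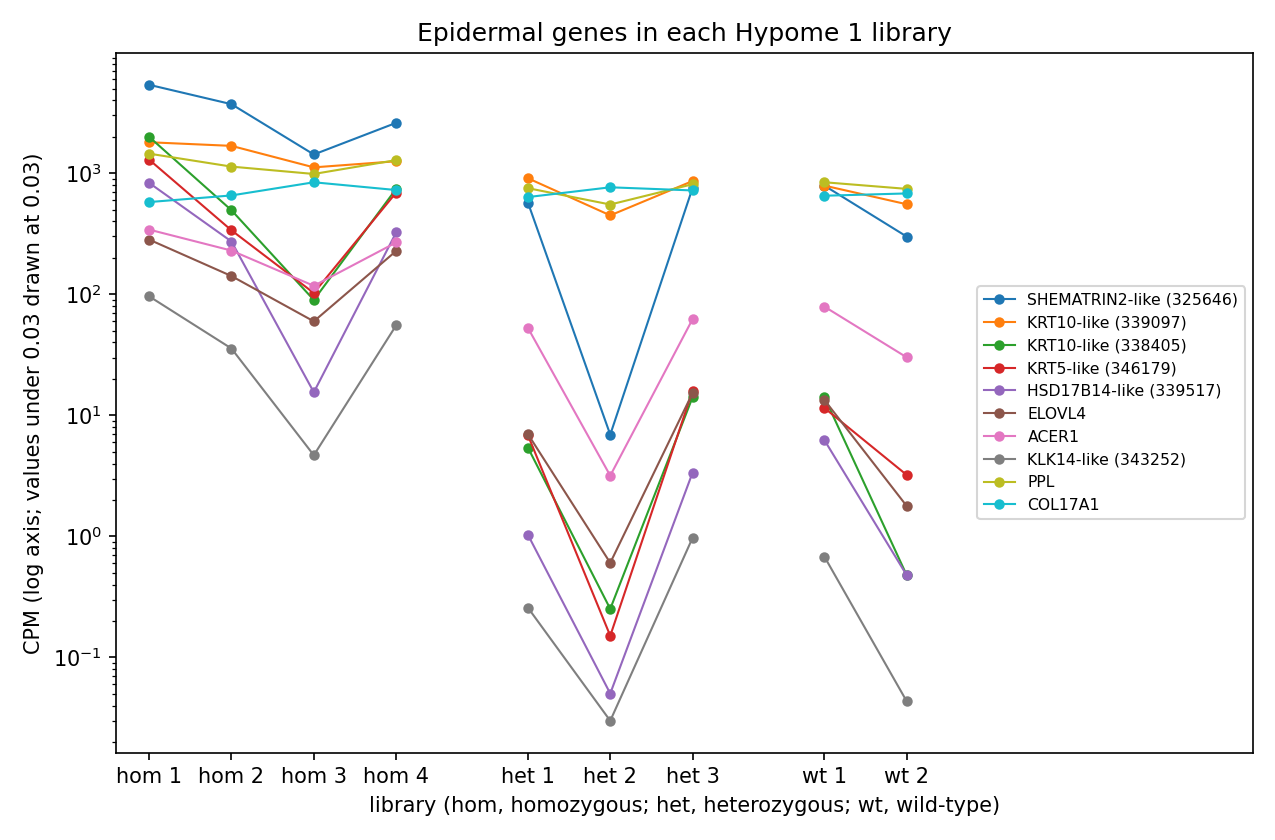
CPM (log axis) of 10 genes described with the epidermis, in the 4 homozygous, 3 heterozygous and 2 wild-type libraries. Digits of LOC129 numbers are in brackets. Lines join the values of 1 gene within a genotype and stand for no order, and values under 0.03 are drawn at 0.03. *COL17A1*, a basal keratinocyte gene, stayed between 577 and 841 CPM in all 9 libraries, while *LOC129338405* (*KRT10-like*) spanned 0.252 to 1995 CPM, with the homozygous libraries highest and heterozygous replicate 2 lowest.

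Regulators and structural proteins of keratinocyte differentiation had mostly higher levels too, with 11 log2 fold changes above 0 and 3 below. Of 14 members tested, DESeq2 called 3 higher, against 2.13% of all genes. At edgeR's unadjusted p under 0.05, 6 were higher and none lower, against 4.94% and 3.50% of all genes. The median was 0.37, and the count was 2 without wild-type replicate 2 or with library totals. *PRDM1*, a transcription factor of terminal differentiation, had 29.1, 27.1, 19.7 and 28.6 CPM in homozygous skin, against 13.4 and 15.2 CPM in wild-type skin (log2 fold change 0.87 ± 0.19, adjusted p = 0.292). *PRSS8*, a membrane-bound protease of the barrier, had 22, 10.1, 6.54 and 11.4 CPM in homozygous skin, against 5.12 and 4.83 CPM in wild-type skin, with a log2 fold change of 1.33 ± 0.40 (adjusted p = 0.444). The groups were apart in both, with replicate 3 the lowest homozygous library. *PPL*, the envelope protein periplakin, *SPINT1*, a protease inhibitor, and the transcription factors *GRHL1* and *OVOL1* had log2 fold changes of 0.61 ± 0.21, 0.37 ± 0.13, 0.75 ± 0.33 and 1.26 ± 0.55. *POU2F3*, another transcription factor of suprabasal keratinocytes, and *SLC39A4*, a zinc transporter, were named after their values were seen and had log2 fold changes of 1.56 ± 0.52 and 1.70 ± 0.32 (adjusted p = 0.485 and 0.191). The 2 markers set for differentiating keratinocytes that the count table holds overlapped in their sum. It was 216 to 270 CPM in the homozygous libraries, against 174 and 220 CPM in the wild-type libraries.

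Cell junctions and basal markers differed less. Over all genes, 4.94% were higher and 3.50% lower at an unadjusted p under 0.05. Of 23 claudins, desmosomal and other junction proteins, 5 were higher and 1 lower at an unadjusted p under 0.05, with a median of 0.05, and 1 was higher without homozygous replicate 4, without wild-type replicate 1 or with library totals, and 2 without homozygous replicate 2 or wild-type replicate 2. *OCLN*, the tight junction protein occludin, had 20.3, 9.21, 7.09 and 12.9 CPM in homozygous skin, against 4.26 and 4.74 CPM in wild-type skin, and *CLDN7*, a claudin, had 5.04, 14.1, 13.2 and 6.09 CPM in the homozygous libraries, against 18.7 and 26.8 CPM in the wild-type libraries. The first was higher and the second lower, with log2 fold changes of 1.46 ± 0.44 and −1.24 ± 0.39 (adjusted p = 0.444 and 0.462). *CLDN4* and *PKP1* had log2 fold changes of 0.46 ± 0.19 and 0.53 ± 0.23. The desmosome protein *DSP*, the most counted of the list, was at 2816, 2707, 2577 and 2810.5 CPM in homozygous skin, against 2259 and 1875 CPM in wild-type skin (adjusted p = 0.649). Of 8 basal keratinocyte markers 1 had an unadjusted p under 0.05, *DST*, with a log2 fold change of 0.35 ± 0.13. *TP63*, the master regulator of basal cells, had 138, 116, 145 and 156 CPM in the homozygous libraries, against 135 and 115 CPM in the wild-type libraries, and *COL17A1*, a collagen of their attachment to the dermis, 577, 655, 841 and 726 CPM in homozygous skin, against 651 and 680.2 CPM in wild-type skin. The groups overlapped in these 2 genes, with log2 fold changes of 0.15 ± 0.14 and 0.07 ± 0.18.

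The homozygous libraries were not alike in these differences. Of the 468 genes that were higher by a log2 value of at least 1, 297 (63.5%) had their lowest homozygous level in replicate 3 and 279 (59.6%) their highest in replicate 1, against 30.5% and 33.8% of all genes. The SD of log2 CPM among the homozygous libraries had a median of 0.56 in these genes and of 0.27 over all genes. Of the 468 genes, 249 were called by DESeq2 and 75 had a log2 fold change of 3 or more. Heterozygous replicate 2 lay below both wild-type libraries in 253 of the 468, against 87 and 38 for heterozygous replicates 1 and 3. Over all 16554 genes the numbers were 6086 for heterozygous replicate 2, and 4524 and 4624 for heterozygous replicates 1 and 3. Of the 200 genes lower by at least 1, 32 were called by DESeq2 and 100 (50.0%) had their lowest level in homozygous replicate 1, against 35.1% of all genes. Replicate 1 was also the homozygous library with the highest share of ribosomal RNA and of muscle transcripts. In a principal component analysis of the 6 libraries on the 500 most variable genes, PC1 carried 51.6% of the variance and separated homozygous replicate 1 (−33.1) from homozygous replicate 3 (14.2), with the wild-type libraries at 11 and 15.7. On PC2, with 37.3%, homozygous replicates 2 to 4 scored −16.3, −12.4 and −12.8 and homozygous replicate 1 scored 11, against 9.69 and 20.9 in the wild-type libraries.

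The dermal genes had mostly lower levels, by small factors. Of 23 markers of dermal fibroblasts and their condensations, 5 were lower and none higher at an unadjusted p under 0.05. The shares over all genes were 3.50% and 4.94%. DESeq2 called 3 lower, against 0.580% of all genes. The median was −0.39, and it was −0.56 with library totals, where the median of all genes was −0.18. It was −0.25 without homozygous replicate 1, and −0.21 without the 2 libraries that have the lowest RNA integrity if the study's values follow the order of the count columns, which the sources do not settle. The 5 are transcription factors. *TBX15*, which patterns the dorsal dermis, had 51.1, 73.1, 77.6 and 62.5 CPM in homozygous skin, against 92.6 and 122 CPM in wild-type skin (log2 fold change −0.70 ± 0.22, adjusted p = 0.461). *ZIC1*, a zinc finger factor of the dorsal body, had 24.1, 26.4, 25.6 and 30.3 CPM in the homozygous libraries, against 40.1 and 39.6 CPM in the wild-type libraries (log2 fold change −0.58 ± 0.13, adjusted p = 0.293). *FOXC1* had 23.3, 21.2, 17.7 and 19.2 CPM in homozygous skin, against 30.7 and 31.3 CPM in wild-type skin (log2 fold change −0.61 ± 0.19, adjusted p = 0.462). No homozygous library reached the lower wild-type library in any of them. *PRRX1* and *EBF2*, factors of mesenchymal cells, had log2 fold changes of −0.43 ± 0.14 and −1.15 ± 0.37.

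The matrix that these cells make was split. The genes of type I collagen, the most counted protein-coding genes, did not differ beyond the spread: *COL1A1* had 74876, 73339, 70585 and 75297 CPM in homozygous skin, against 67258 and 85095 CPM in wild-type skin, and *COL1A2* 35656, 39349, 39466 and 38205 CPM in the homozygous libraries, against 37682 and 43968 CPM in the wild-type libraries. Of 24 collagens 3 were lower and 2 higher at an unadjusted p under 0.05, against 3.50% and 4.94% of all genes, with a median of −0.11, and none without wild-type replicate 2. *COL14A1*, a collagen of fibril surfaces in the dermis, had 440.4, 618, 749.8 and 649 CPM in homozygous skin, against 902 and 1181 CPM in wild-type skin (log2 fold change −0.76 ± 0.25, adjusted p = 0.463). *COL7A1*, which keratinocytes make to anchor the epidermis, had 27.5, 13.7, 17.9 and 16.6 CPM in the homozygous libraries, against 8.42 and 6.68 CPM in the wild-type libraries (log2 fold change 1.33 ± 0.40, adjusted p = 0.444). *COL11A1* and *COL24A1* had log2 fold changes of −0.43 ± 0.18 and −0.60 ± 0.25. Of 31 genes of collagen processing and other matrix, 6 were lower and none higher at the same p, with a median of −0.17, and 1 was lower without wild-type replicate 2. The lower members included *LOXL2*, a crosslinking enzyme, *VCAN*, a large proteoglycan, and the collagen hydroxylases *P4HA3* and *PLOD2*, with log2 fold changes of −0.50 ± 0.15, −0.50 ± 0.18, −0.41 ± 0.17 and −0.48 ± 0.21. *MMP2*, a gelatinase of dermal cells, had 108, 129, 171 and 138 CPM in homozygous skin, against 204 and 241 CPM in wild-type skin (log2 fold change −0.71 ± 0.18, adjusted p = 0.372).

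The WNT pathway held no member that was higher at an unadjusted p under 0.05, against 4.94% of all genes. Of 49 members tested, 6 were lower at that p, against 3.50% of all genes, and DESeq2 called 3 lower, against 0.580%. In 16 members all homozygous libraries lay below both wild-type libraries, against 9.44% of all genes. The median was −0.24, and it was −0.42 with library totals, where that of all genes was −0.18. It was −0.15 without homozygous replicate 1 and −0.07 without the 2 libraries of lowest RNA integrity by column order. Without wild-type replicate 1 the 6 became 2, with 1 higher. Beside *NOTUM*, *WNT10B*, a ligand of early scale and hair placodes, had 11.4, 10.1, 9.67 and 10.9 CPM in homozygous skin, against 24.1 and 13 CPM in wild-type skin (log2 fold change −0.82 ± 0.23, adjusted p = 0.443). The receptor *FZD2* and the transcription factor *TCF7L1* had log2 fold changes of −0.41 ± 0.15 and −0.35 ± 0.13, and β-catenin, *CTNNB1*, had 669.9, 744, 822 and 751 CPM in the homozygous libraries, against 863 and 921 CPM in the wild-type libraries (adjusted p = 0.71).

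Among 44 genes of placode, hedgehog, FGF and BMP signalling, 7 were lower and 2 higher at an unadjusted p under 0.05, against 3.50% and 4.94% of all genes, with a median of −0.20, and 2 of each without wild-type replicate 2. *FGF9*, an FGF ligand, had 0.272, 0.688, 1.63 and 1.18 CPM in homozygous skin, against 3.07 and 2.74 CPM in wild-type skin (log2 fold change −1.61 ± 0.52, adjusted p = 0.462). *FGF20*, a ligand of placodes, was at or near 0 in the homozygous libraries (0, 0, 0.111 and 0.0256 CPM), against 0.455 and 0.479 CPM. Both ligands were low in absolute level. *PTCH1*, the hedgehog receptor, had 41.1, 56.5, 86.1 and 62.2 CPM in homozygous skin, against 95 and 111 CPM in wild-type skin, and *SMO*, the transducer of the same signal, 91.9, 91.1, 117 and 93.9 CPM in the homozygous libraries, against 128 and 147 CPM in the wild-type libraries (log2 fold changes −0.75 ± 0.28 and −0.48 ± 0.18, adjusted p = 0.513 and 0.523). *FGF1* was higher, at 6.67, 1.35, 0.111 and 2.1 CPM in homozygous skin, against 0 and 0.087 CPM in wild-type skin, and so was the FGF feedback inhibitor *SPRY4*, with a log2 fold change of 1.07 ± 0.38. *ETV5*, a transcription factor induced by FGF, had a log2 fold change of −0.32 ± 0.11.

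Of the genes that make retinoic acid, the 2 that were lower act in sequence. *RDH10*, which oxidizes retinol, had 28.4, 40.1, 38.7 and 39.5 CPM in homozygous skin, against 53.6 and 75.2 CPM in wild-type skin (log2 fold change −0.81 ± 0.18, adjusted p = 0.293). *ALDH1A2*, which completes the synthesis, had 12.3, 12.3, 9.86 and 14.2 CPM in the homozygous libraries, against 22.5 and 24.3 CPM in the wild-type libraries (log2 fold change −0.94 ± 0.30, adjusted p = 0.461). The groups did not overlap in either gene, and the median of the list was −0.05. Of its 20 members, 2 were lower and 1 was higher at an unadjusted p under 0.05. The shares over all genes were 3.50% and 4.94%. Without wild-type replicate 2, 1 member was lower and none higher at an unadjusted p under 0.05. Of 28 HOX genes, which mark position along the body, 3 were lower and 1 higher at an unadjusted p under 0.05, where 3.50% and 4.94% of all genes were. *HOXC8* had 9.6, 7.5, 13.3 and 11.6 CPM in homozygous skin, against 17.4 and 19.8 CPM in wild-type skin, and *HOXC6*, its neighbour, *HOXA7* and *HOXB5* had log2 fold changes of −0.51 ± 0.15, −0.46 ± 0.16 and 0.90 ± 0.33, where that of *HOXC8* was −0.83 ± 0.21 (adjusted p = 0.374).

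**Figure D4:**
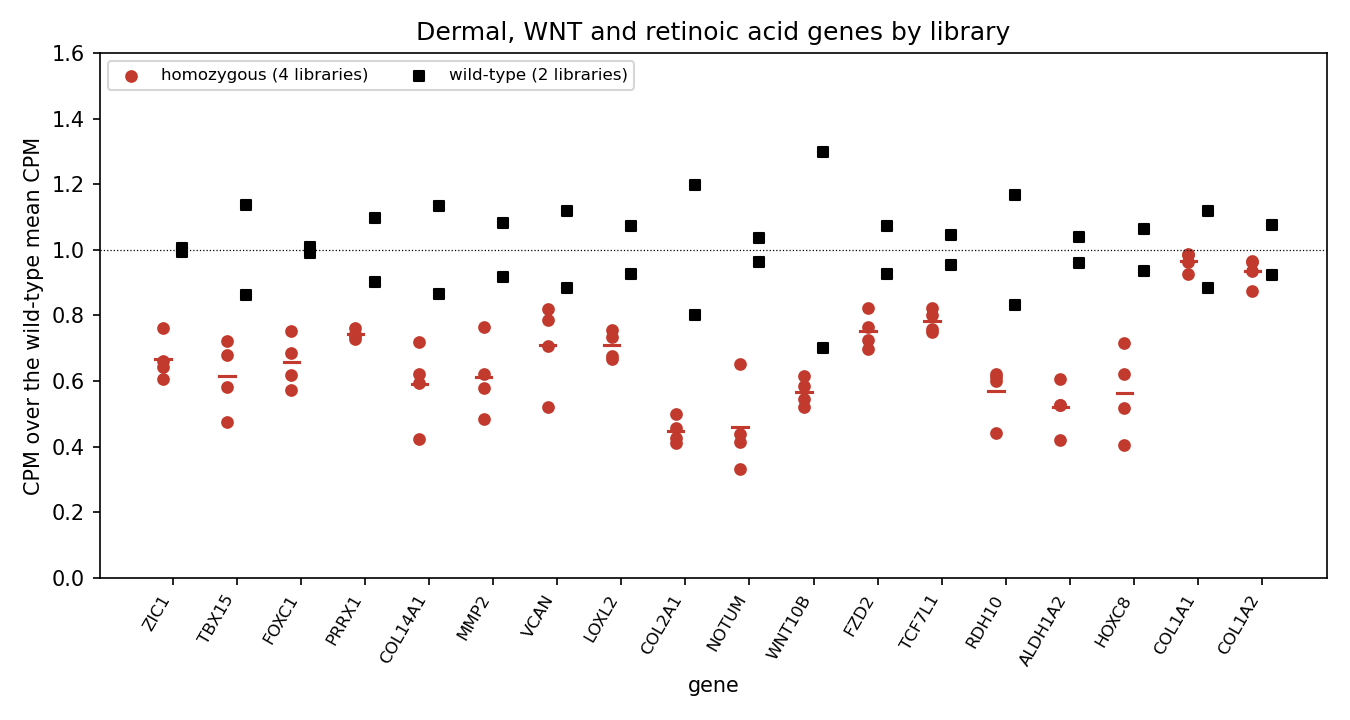
CPM over the wild-type mean CPM (y axis) for 18 dermal, WNT and retinoic acid genes, in 4 homozygous (red, with their mean as a bar) and 2 wild-type libraries (black). From *ZIC1* to *HOXC8* the red points lie below the black ones, and in *COL1A1* and *COL1A2*, shown for comparison, they overlap.

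The pigment lists gave few differences. None of 10 melanin enzymes and melanosome matrix genes had an unadjusted p under 0.05 in edgeR or a call in DESeq2, and their median was 0.19. *PMEL*, the fibril protein of melanosomes, had 1239.6, 1356, 1600.4 and 1535 CPM in homozygous skin, against 1578 and 1248 CPM in wild-type skin. *TYR*, tyrosinase, had 16.5, 28, 48.7 and 46.2 CPM in the homozygous libraries, against 36.8 and 38.7 CPM in the wild-type libraries, so that its homozygous libraries lay on both sides of the wild-type ones (log2 fold change −0.12 ± 0.40, adjusted p = 0.96). *GPNMB*, a melanosome glycoprotein, was at 868, 896, 1709 and 1109.5 CPM in homozygous skin, against 896 and 924 CPM in wild-type skin, and overlapped too. Of 11 melanosome ion and cystine transporters, *SLC7A11*, the cystine transporter that favours red pheomelanin in mammals, was higher, at 16.6, 12.6, 13.5 and 14 CPM in the homozygous libraries, against 9.78 and 7.83 CPM in the wild-type libraries (log2 fold change 0.68 ± 0.27, adjusted p = 0.524). *SLC7A11* was the only member of that list with an unadjusted p under 0.05, where 4.94% of all genes were higher and 3.50% lower. The median of that list was 0.04. Of 16 lineage transcription factors 2 were lower at an unadjusted p under 0.05, against 3.50% of all genes. They were *LEF1*, a transcription factor of the WNT pathway, with a log2 fold change of −0.79 ± 0.32 (adjusted p = 0.541), and *BNC2*, which chromatophores need in zebrafish, at 18, 19.9, 21.8 and 19.4 CPM in homozygous skin, against 28.3 and 25.2 CPM in wild-type skin (log2 fold change −0.44 ± 0.16, adjusted p = 0.504). Of 17 receptors and ligands of pigment cells 1 was lower and 2 were higher at an unadjusted p under 0.05. Over all genes, 3.50% were lower and 4.94% higher. *EDNRB*, the endothelin receptor of the melanocyte lineage, had 41.1, 45.4, 58.2 and 49.4 CPM in homozygous skin, against 73.3 and 80.3 CPM in wild-type skin (log2 fold change −0.66 ± 0.24, adjusted p = 0.497). Beside *PRCP*, *ERBB3*, the neuregulin receptor of neural crest cells and Schwann cells, had 21.8, 17.8, 13.8 and 21.1 CPM in the homozygous libraries, against 11.7 and 10.5 CPM in the wild-type libraries (log2 fold change 0.75 ± 0.25, adjusted p = 0.475). The groups did not overlap in either receptor. Of 33 genes of melanosome biogenesis and transport 2 were higher and none lower, against 4.94% and 3.50% of all genes, with a median of 0.06. These were *MYO7A*, a myosin motor, and *AP1S3*, an adaptor subunit of vesicle sorting, with log2 fold changes of 1.72 ± 0.57 and 1.10 ± 0.43 (adjusted p = 0.475 and 0.524).

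The genes of yellow and reflecting colour were led by *XDH*. Of 12 pteridine and carotenoid genes, the other member with an unadjusted p under 0.05 was *SCARB1*, a carotenoid and lipoprotein receptor, at 132, 78.8, 51.8 and 93.4 CPM in homozygous skin, against 52.7 and 35.7 CPM in wild-type skin (log2 fold change 1.01 ± 0.40, adjusted p = 0.54). Its homozygous replicate 3 lay just below wild-type replicate 1. *XDH* and *SCARB1* were both higher and no member was lower at that p, against 4.94% and 3.50% of all genes. *BCO2*, which cleaves carotenoids, had 134, 243, 109 and 108 CPM in homozygous skin, against 104 and 97.7 CPM in wild-type skin (adjusted p = 0.692). Of 16 genes of purine synthesis, *IMPDH2* and *HPRT1*, which make and salvage guanine and other purine nucleotides, had log2 fold changes of 0.35 ± 0.14 and 0.41 ± 0.16. No other purine gene had an unadjusted p under 0.05, where 4.94% of all genes were higher and 3.50% lower. The median of the purine list was 0.15 and of the pteridine and carotenoid list 0.11. With library totals they were −0.05 and −0.09, where the median of all genes was −0.18. *LOC129324994* (*AOX3-like*), named after an aldehyde oxidase of the xanthine dehydrogenase family and chosen after its values were seen, was at 2.93, 15.6, 39.7 and 6.62 CPM in the homozygous libraries, against 72.9 and 121 CPM in the wild-type libraries (log2 fold change −2.58 ± 0.91, adjusted p = 0.523).

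Markers of other cell types differed in part. Of 41 skeletal muscle markers none had an unadjusted p under 0.05. *ACTA1*, the actin of skeletal muscle, had 1878, 8.96, 3.96 and 33 CPM in homozygous skin, against 161 and 278 CPM in wild-type skin, so that replicate 1 lay far above the wild-type libraries and the other 3 far below. The median of the muscle list was 0.19, and −3.23 without homozygous replicate 1, when 26 of the 41 were lower at an unadjusted p under 0.05. In cartilage and bone, 5 of 18 markers were lower and 1 higher at an unadjusted p under 0.05, against 3.50% and 4.94% of all genes, with a median of −0.41. Without wild-type replicate 2, 2 were lower and the median was −0.22. *COL2A1*, the main cartilage collagen, had 57.9, 52.2, 53.9 and 63.1 CPM in homozygous skin, against 102 and 152 CPM in wild-type skin (log2 fold change −1.16 ± 0.45, adjusted p = 0.541), and heterozygous replicate 2 had 358 CPM. *ACAN* and *MATN1*, which also define cartilage, were at or near 0 in every library. *COMP* and the bone factor *SP7*, both low, had log2 fold changes of −1.32 ± 0.43 and −2.57 ± 1.00, and *IBSP*, a sialoprotein of bone, was higher, at 0.776 to 2.45 CPM in the homozygous libraries, against 0.171 and 0.131 CPM in the wild-type libraries (log2 fold change 3.18 ± 0.72). The bone markers of the list thus went both ways. *RUNX2*, *BGLAP*, *DMP1* and *SPP1* had log2 fold changes of 0.73, 1.12, 3.23 and 0.28, and *ALPL* and *PHEX* of −0.66 and −0.24. None of these had an unadjusted p under 0.05.

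Blood markers had mostly positive log2 fold changes, and nerve markers values on both sides of 0. Of 11 red blood cell markers 3 were higher at an unadjusted p under 0.05, against 4.94% of all genes, with a median of 0.65, and of 7 globins 1, with a median of 1.33. The medians were 0.40 and 0.66 without homozygous replicate 1, and 0.16 and 0.35 without homozygous replicates 1 and 4, the 2 libraries of lowest RNA integrity by replicate number. *LOC129325884* (*HBB-2-like*) had 3492, 906, 789 and 1546 CPM in homozygous skin, against 613 and 718 CPM in wild-type skin, with replicate 1 highest. *GATA1*, the transcription factor of red cells, and *TFRC*, the transferrin receptor, had log2 fold changes of 0.73 ± 0.25 and 0.52 ± 0.19, and *ALAS2*, which starts haem synthesis in red cells, had 130.1, 39.2, 41.7 and 79.96 CPM in homozygous skin, against 31.2 and 40.3 CPM in wild-type skin. Without homozygous replicate 2, 8 red blood cell markers and 4 globins were higher at an unadjusted p under 0.05. Without homozygous replicate 3, 6 globins were, and without wild-type replicate 1 no red blood cell marker. In the Schwann cell and nerve list 2 of 19 were higher and 2 lower at an unadjusted p under 0.05. The shares over all genes were 4.94% and 3.50%. *PMP22*, a myelin protein, had 244, 280.4, 360.3 and 332 CPM in the homozygous libraries, against 406 and 441 CPM in the wild-type libraries, and *NES*, the progenitor filament nestin, 21.8, 24.8, 31.7 and 27.4 CPM in homozygous skin, against 40.3 and 48.8 CPM in wild-type skin (log2 fold changes −0.48 ± 0.17 and −0.75 ± 0.17, adjusted p = 0.493 and 0.301). *NEFM*, a filament of axons, was at 1.38 to 6.4 CPM in the homozygous libraries, against 0.569 and 0.653 CPM in the wild-type libraries (log2 fold change 2.25 ± 0.80). Endothelial, macrophage and adipocyte markers had medians of 0.08, 0.06 and 0.33, with at most 2 members of each list at an unadjusted p under 0.05 in either direction.

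Among early response genes, 5 of 27 were higher and 2 lower at an unadjusted p under 0.05, against 4.94% and 3.50% of all genes, with a median of 0.22, and 2 in each direction without wild-type replicate 2. The growth-induced transcription factor *EGR1* had 32, 22.1, 15.7 and 25.6 CPM in homozygous skin, against 11.1 and 7.09 CPM in wild-type skin, and its relative *EGR3* 83.6, 60.7, 52.2 and 97.6 CPM in homozygous skin, against 31.8 and 22.8 CPM in wild-type skin. Both were apart between the groups, with log2 fold changes of 1.39 ± 0.30 and 1.43 ± 0.40 (adjusted p = 0.292 and 0.444). *DUSP2*, a phosphatase that ends MAP kinase signals, had 51.1, 29.8, 14.1 and 38.2 CPM in the homozygous libraries, against 11.1 and 7.22 CPM in the wild-type libraries (log2 fold change 1.86 ± 0.51, adjusted p = 0.444). *CCN1*, a matricellular protein, was lower, at 23.4, 21.7, 21 and 22.7 CPM in homozygous skin, against 37.7 and 28.8 CPM in wild-type skin (log2 fold change −0.58 ± 0.19).

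Iron, lysosomal and stress genes gave a few differences each. *HMOX1*, the haem-degrading enzyme of oxidative stress, had 55.5, 41.1, 23.8 and 47.3 CPM in homozygous skin, against 15.2 and 12.4 CPM in wild-type skin (log2 fold change 1.60 ± 0.39, adjusted p = 0.372). *SLC40A1*, the iron exporter, had 37.8, 27.1, 33.2 and 45.7 CPM in the homozygous libraries, against 18 and 11.4 CPM in the wild-type libraries (log2 fold change 1.29 ± 0.30, adjusted p = 0.312). Both were among the 3 of 18 iron genes that were higher at an unadjusted p under 0.05, and none was lower. The shares over all genes were 4.94% and 3.50%. With library totals 2 iron genes were higher and 2 lower. Of 46 lysosomal genes 5 were higher and none lower at an unadjusted p under 0.05, against 4.94% and 3.50% of all genes, with a median of 0.12, and 2 were higher without wild-type replicate 2. The 5 included *ASAH1*, which degrades ceramide, at 775, 482, 280.02 and 509 CPM in homozygous skin, against 225 and 169 CPM in wild-type skin (log2 fold change 1.38 ± 0.41, adjusted p = 0.448), *GM2A*, an activator of glycolipid breakdown, and *CTSF*, a cathepsin, with log2 fold changes of 0.59 ± 0.16 and 0.69 ± 0.21. *BAG3*, a co-chaperone, and *SESN2*, a stress sensor, had log2 fold changes of 1.46 ± 0.56 and 0.90 ± 0.23, and *PSAT1*, an enzyme of serine synthesis, one of −0.53 ± 0.17. The stress lists were near the shares of all genes. Of 21 heat shock and chaperone genes 1 was higher (4.76%) and none lower at an unadjusted p under 0.05. Of 27 genes of the unfolded protein response 2 were higher (7.41%) and 1 lower (3.70%).

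Cholesterol synthesis was mixed, with 5 of 25 members higher and 2 lower at an unadjusted p under 0.05, and none higher without wild-type replicate 2. Of all genes, 4.94% were higher and 3.50% lower at an unadjusted p under 0.05. *HMGCS1*, an early enzyme, had 217, 169.6, 113 and 149.9 CPM in homozygous skin, against 90.6 and 94.5 CPM in wild-type skin, *LSS*, which closes the sterol rings, 8.23, 12.7, 10.4 and 10.4 CPM in the homozygous libraries, against 12.8 and 20.9 CPM in the wild-type libraries, and the late enzyme *EBP* a log2 fold change of 0.56 ± 0.22. The first was higher and the second lower, with log2 fold changes of 0.81 ± 0.31 and −0.70 ± 0.23. Of 45 genes of cell division 4 were lower and none higher at an unadjusted p under 0.05, against 3.50% and 4.94% of all genes, with a median of −0.10, and 2 were lower without homozygous replicate 2, homozygous replicate 4 or wild-type replicate 2. *CCNE2* and *RRM1*, which act at the start of DNA synthesis, had log2 fold changes of −0.47 ± 0.17 and −0.27 ± 0.11, and *MKI67*, the proliferation marker, had 179, 163, 188 and 189.8 CPM in homozygous skin, against 186 and 189 CPM in wild-type skin, which overlapped.

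Genes of ribosomes and respiration had small positive log2 fold changes. All 77 cytosolic ribosomal protein genes had a log2 fold change above 0, with a median of 0.33, but 1 had an unadjusted p under 0.05, against 4.94% of all genes. The summed level of these genes was 96898, 79353, 51166 and 53852 CPM in homozygous skin, against 65075 and 47804 CPM in wild-type skin, so that replicates 1 and 2 were high and replicates 3 and 4 lay among the wild-type libraries. *RPLP0* had 4064, 3299, 1839.9 and 2000.01 CPM in the homozygous libraries, against 2668 and 1952 CPM in the wild-type libraries. Of 54 nuclear subunits of oxidative phosphorylation 52 were above 0, with a median of 0.28, and 1, *NDUFA5*, had an unadjusted p under 0.05 (log2 fold change 0.59 ± 0.22). Without homozygous replicate 3 the counts at an unadjusted p under 0.05 were 6 and 14. The medians were 0.10 and 0.06 with library totals, where that of all genes was −0.18. They were 0.14 and 0.13 without homozygous replicate 1, and −0.09 and −0.09 without the 2 libraries of lowest RNA integrity by column order. For the ribosomal protein genes the median was also 0.56 without wild-type replicate 1 and 0.13 without wild-type replicate 2, and for the respiratory genes 0.43 without homozygous replicate 3.

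**Figure D5:**
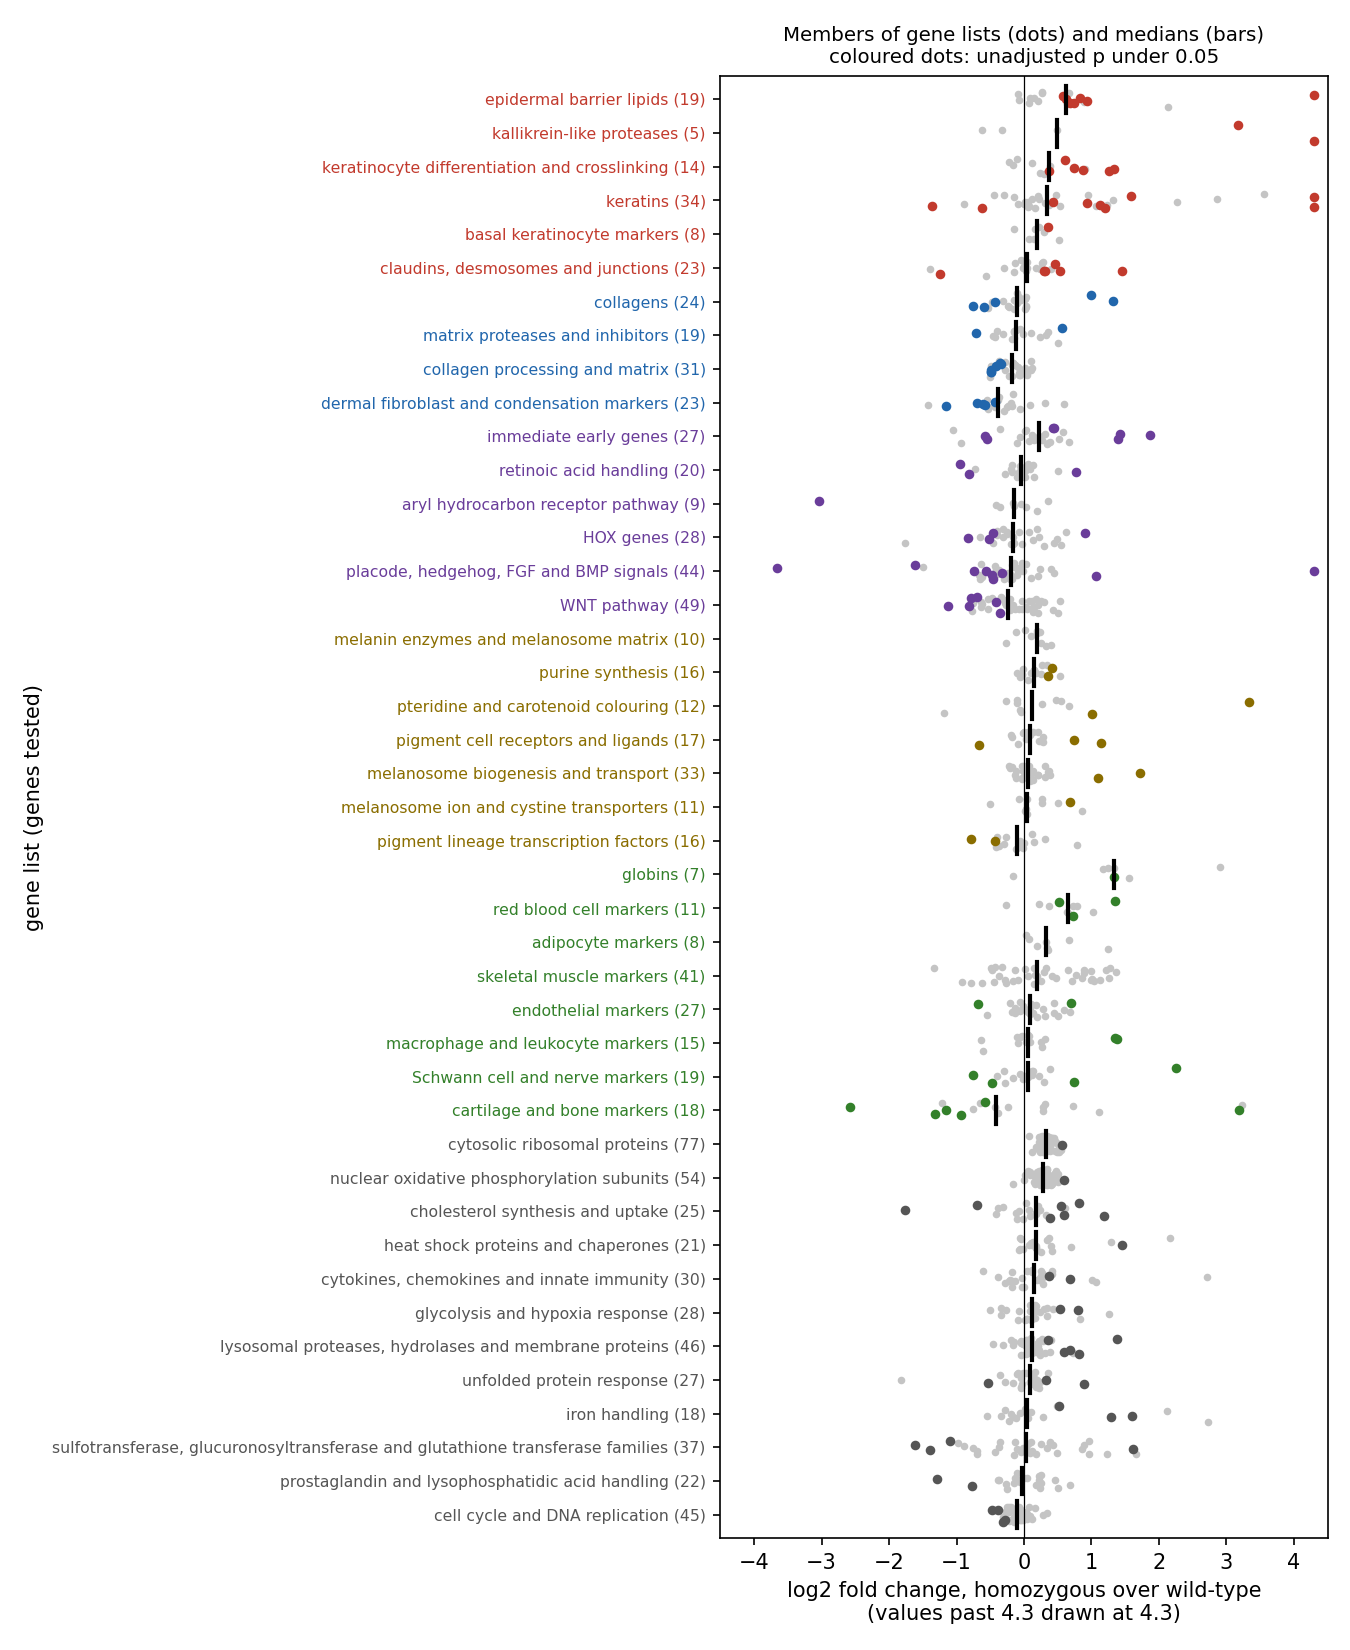
Log2 fold changes of homozygous over wild-type skin (x axis) for the tested members of 43 gene lists (down the page, with the number tested), coloured where the unadjusted p of edgeR was under 0.05, and the median of each list as a bar (values past 4.3 are drawn at 4.3). Barrier lipids (0.63) and globins (1.33) lie to the right of 0. The medians of dermal fibroblast markers (−0.39) and of cartilage and bone markers (−0.41) lie to the left.

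By position, genes with an unadjusted p under 0.05 were spread over the 19 scaffolds with at least 100 genes tested, from 5.6% of the tested genes of Scaffold 4 to 12.1% of those of Scaffold 10. The *LOC129326753* (*B3GALT5-like*) and *LOC129326151* (*B3GALT5-like*) genes lie on Scaffold 3 at 91820475 to 91851766 and 91730869 to 91735691. *PCP4*, a calmodulin-binding protein, and *KCNE1*, a potassium channel subunit, lie on either side of them, at 91520309 to 91615296 and 96055417 to 96068033, and were named after their values were seen. *KCNE1* lies megabases away from the pair, and the genes between are not described here. *PCP4* had 1.05, 0.596, 0.499 and 0.818 CPM in homozygous skin and no counts in the wild-type libraries, at least 9.86-fold higher if 3 counts per wild-type library are allowed. It passed the count filter through homozygous libraries alone, so its difference is a description. *KCNE1* had 2.59, 3.48, 1.22 and 2.61 CPM in homozygous skin, against 0.227 and 0.305 CPM in wild-type skin (log2 fold change 3.20 ± 0.59, adjusted p = 0.191).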

How the data were processed

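Dorsal skin RNA of Hypome 1 embryos was sequenced by the authors, who aligned the reads with STAR 2.7.10b and counted uniquely mapped reads per gene with featureCounts of Subread 2.0.6, as their processing notes and methods state. The deposited values are raw counts per gene, not normalized, and the strand setting is not given in the sources used here. Even counts made up 57.8% to 65.5% of the counts between 10 and 2000 in each library. Every column matched a library (0 unmatched columns), and 1 gene, *NEB*, was left out because its record is broken over 5 lines.

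Groups follow the labels. Genes with at least 10 counts in at least 2 of the 6 homozygous and wild-type libraries were tested with edgeR 4.0.16 (R 4.3.3), with TMM factors and a quasi-likelihood fit over all 9 libraries (common coefficient of biological variation 0.298), and p-values were adjusted by Benjamini-Hochberg over 16554 genes. DESeq2 1.42.0 was an alternative. The test was checked on simulated counts with known changes. Tables and plots used Python 3.11.15, numpy 2.4.6, pandas 2.3.3 and matplotlib 3.10.9, with 0.1 CPM added on log scales.

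The gene lists and the question were chosen with earlier results of these data known. The genes named were taken from those with an adjusted p under 0.05, the 12 higher and 12 lower genes of smallest p without overlap, up to 4 members of smallest p under 0.05 and up to 3 of the most expressed members of each list, and *TYR*. The genes of the reported clusters and families, *ELOVL4*, *GRHL1*, *OVOL1*, *PKP1*, *TP63*, *PRRX1*, *KRT18*, *PTCH1*, *SMO*, *FGF20*, *SPTSSB*, *POU2F3*, *SLC39A4*, *PCP4*, *KCNE1*, *TRMT10C* and the *ALOXE3-like*, *AOX3-like* and *FAM172B-like* genes, as well as *LOC129346180* (*KRT5-like*), *LOC129338405* (*KRT10-like*) and *LOC129346179* (*KRT5-like*), were named outside this rule after their values were seen. Some genes that the rule selects are not reported here. Alternatives covered the tool, scaling, count filter, halved counts, season, RNA integrity, the replicate block and each library left out. Sequences were not used here.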

Additional observations from a re-analysis of the deposited data

Results flagged for a closer look

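Among 207 values examined in the 4 homozygous libraries, 9 had 1 library whose gap to the nearest other, over the group's range, was above Dixon's critical value. Chance alone does this in about 1 in 20 groups, and the 2 wild-type libraries are too few to be examined. In 5 of the 9 the library was homozygous replicate 1.

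Homozygous replicate 1 was the high library in the summed skeletal muscle markers, at 8926 CPM where the others held 893 to 1113 CPM, and in *ACTA1*, at 1878, 8.96, 3.96 and 33 CPM in the homozygous libraries, of which 1878 CPM is replicate 1. It was also high in the summed glycolysis and hypoxia list, at 6997 CPM, and low in the summed endothelial markers, at 488 CPM. In *RDH10* it was low, at 28.4 CPM, where the others held 38.7 to 40.1 CPM.

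Homozygous replicate 2 was high in *PSAT1*, at 31.3 CPM, and homozygous replicate 3 in *SMO*, at 117 CPM. Homozygous replicate 4 was high in the neighbouring genes *TRMT10C*, at 114 CPM, and *LOC129325585* (*FAM172B-like*), at 35.5 CPM.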

How the results depend on the processing

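Every named gene with an unadjusted p under 0.05 kept the direction of its log2 fold change under the alternatives compared. The p itself held less well: 85 of the 155 named genes were no longer under 0.05 in at least 1 alternative. The fits with no count filter or with 10 counts required in each library were left out of that comparison. The numbers of genes past each threshold did not hold. The log2 fold change of ACTA1, not past any threshold, was 1.13, ran from −3.83 (without homozygous replicate 1) to 1.57 with 1 library left out, and was −5.08 without the 2 libraries of lowest RNA integrity, of which that replicate is one. DESeq2 called 448 genes on the 6 libraries and 215 on all 9, edgeR 5 with no count filter and 1 with season as a factor. The sources do not settle whether the study's season and RNA integrity follow the replicate numbers, as taken here, or the order of the columns. Fits by column order, chosen after seeing the data, called 27 and 5. Leaving out 1 library gave 1 (without wild-type replicate 2) to 18 calls (without homozygous replicate 3). Genes at an unadjusted p under 0.05 numbered 783 without the 2 libraries of lowest RNA integrity, 2183 with season by column order, and 680 to 2004 with 1 library left out. Genes apart by at least 1 on the log2 scale, 668 in all, numbered 409 with 10 counts required in each library, 1048 without the 2 libraries of lowest RNA integrity by column order, and 668 to 1454 with 1 library left out.

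Scaling moved the balance of directions, and so did the choice of libraries. Among genes apart by at least 1, 488 were higher and 355 lower without homozygous replicate 1. Without the 2 libraries of lowest RNA integrity these numbers were 537 and 447. With library totals in place of TMM the median over all genes was −0.18, with 392 genes higher and 1396 lower at an unadjusted p under 0.05, against 817 and 580, and 327 higher and 334 lower among genes apart by at least 1. With ribosomal RNA genes left out as well, a setting chosen after seeing the data, the median was −0.08 and the numbers were 591 and 754. With a replicate block 0 genes were called by edgeR, with 1295 at an unadjusted p under 0.05. Deviations of same-numbered homozygous and wild-type libraries correlated at 0.0652 and −0.0583, so the numbers were not taken to pair the embryos. The spread between wild-type embryos rests on 2 libraries of 1 family.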

Other observations

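A neighbouring pair of genes on Scaffold 3 split the libraries within the homozygous and within the heterozygous group. *TRMT10C*, which encodes a subunit of mitochondrial RNase P (139954094 to 139957802), had 27.5, 30.9, 34.5 and 114 CPM in the homozygous libraries, 37.2, 135 and 127 CPM in the heterozygous libraries and 203 and 225 CPM in the wild-type libraries. *LOC129325585* (*FAM172B-like*) (139961540 to 139968804) had 0.408, 0.321, 0.609 and 35.5 CPM in homozygous, 0.424, 30.1 and 41 CPM in heterozygous and 68.2 and 82.4 CPM in wild-type skin. Both were low in homozygous replicates 1 to 3 and heterozygous replicate 1 and higher in the other 5 libraries. Among these 5 the wild-type libraries were the highest, so every homozygous library lay below both wild-type libraries. The pair was chosen after its values were seen.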
